A study of Arabidopsis thaliana with 12 samples.

Results

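The interaction of the aig2abc and pad4 mutations was described in Arabidopsis thaliana from whole shoots collected at 2 weeks of age, as the difference between the effect of aig2abc without functional PAD4 and its effect with it. All 12 libraries of the series entered, 3 for each of 4 genotypes, and 15082 of the 33331 genes in the table had enough counts to be tested. Col-0 is the wild type with both gene sets intact, aig2abc is labelled as mutant in AIG2A, AIG2B and AIG2C, pad4 as mutant in PAD4 with the AIG2 genes intact, and aig2abc pad4 combines both. All plants were grown at 22 °C, 50% humidity and 100 µmol m-2 s-1 of constant light, with no pathogen or chemical named. No label used here states the alleles, the number of independent lines or the plants pooled per library. Counts came from 3′ RNA-seq, which reads transcripts near their 3′ end, so a count can persist when the lesion lies elsewhere in the gene. Whether the 3 libraries of a genotype stem from plants grown apart is not stated, so p-values reflect the spread of these libraries alone, and that spread may be technical.

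PAD4 is a lipase-like protein that forms a complex with EDS1 and, through the helper receptors of the ADR1 family, carries signals of immune receptors towards salicylic acid accumulation. Salicylic acid is made mainly through ICS1, is perceived by the NPR proteins and switches on PR1 and other secreted defence proteins. Shoots of this species also make the indole phytoalexin camalexin, glucosinolates that are split into toxic products on wounding, and small antifungal defensins under the control of jasmonate and ethylene. The AIG2 genes are named after transcripts induced by an avirulent bacterium. The comparison asks which responses to the aig2abc mutations depend on PAD4.

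For each gene the log2 change in aig2abc against Col-0 was subtracted from the log2 change in aig2abc pad4 against pad4. The difference is called the interaction value here, and a positive one means that aig2abc raised the gene more, or lowered it less, when PAD4 was also mutated. It was tested with edgeR's quasi-likelihood F-test and called at a Benjamini-Hochberg adjusted p below 0.05 over all genes tested. Levels are given in CPM, the usual unit of counts relative to the library total, with that total scaled by TMM.

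The labels were checked first on the mutated genes. PAD4 stood at 17.1, 27.2 and 35.2 CPM in Col-0, 56.7, 42.5 and 51.2 in aig2abc and 2.68, 3.45 and 2.93 in pad4, with 5.1, 8.14 and 5.92 in aig2abc pad4. All libraries with the pad4 mutation were thus below all libraries without it, and the interaction value of 0.13 ± 0.41 did not pass (edgeR adjusted p = 0.849). AIG2C was at 26.4 to 55.9 CPM in Col-0 and pad4 and at 0 to 1.48 CPM in both aig2abc genotypes. AIG2A was not lower than in Col-0 in either genotype labelled aig2abc, at 62.6 to 73.2 CPM in Col-0, 77.2 to 109 in aig2abc and 46.8 to 50.5 in pad4, with 209 to 227 in aig2abc pad4. Its interaction value was 1.68 ± 0.31 (edgeR adjusted p = 0.0115). For AIG2B the aig2abc pad4 libraries held 84.5, 125 and 353 CPM, and the other 9 libraries held 500.5 to 1260 CPM, with a value of -2.28 ± 0.61 (edgeR adjusted p = 0.0272). That call for AIG2B was lost when any one of 8 libraries was left out, namely Col-0 replicate 1, pad4 replicate 2 or 3, aig2abc pad4 replicate 1 or 2, or any aig2abc library, the adjusted p reaching 0.0775 when aig2abc pad4 replicate 2 was dropped. The 3 AIG2 genes are related in sequence and may share reads, so values of single members are uncertain.

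Depth differed between the genotypes. The aig2abc libraries held 584342 to 3005199 counts and all others 5542138 to 10697612. The 9 libraries outside aig2abc varied among replicates along a common axis that held 52.5% of their variance within genotypes, and the aig2abc libraries lay at one end of it, at -108 to -85 against -63.6 to 59.8 elsewhere. A fit with each library's score on this axis as an added term is called the replicate-axis covariate. A difference between the aig2abc genotype and this state of its libraries cannot be told apart in this design. Marker genes of seeds were at or near 0 in every genotype. The summed root markers were low, and 0 of the 5 had enough counts to be tested. They stood at 1.48 to 5.79 CPM in aig2abc, 0.599 to 2.02 in Col-0, 1.87 to 3.22 in pad4 and 0.192 to 0.987 in aig2abc pad4. The summed flower markers stood at 5.25 to 9.65 CPM in aig2abc, 1.4 to 2.78 in Col-0, 1.61 to 2.57 in pad4 and 1.48 to 3.77 in aig2abc pad4. The 1 flower marker tested was called higher in aig2abc against Col-0 (2.42), while AP1 and AP3 held 0 counts in aig2abc. The summed epidermis markers reached 8990 to 14200 CPM in aig2abc, 3300 to 3940 in Col-0, 3620 to 7290 in pad4 and 2400 to 8190 in aig2abc pad4. LTP1 made up most of that sum, with a mean of 10776 CPM in aig2abc, and was the 1 of 5 markers called higher in aig2abc against Col-0, while ATML1, ABCG12 and a further marker, AT2G26250, were called lower. Their part in the results was not tested. In whole shoots, fewer cells of a type and less RNA per cell cannot be told apart.

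Genes responded differently to aig2abc in the absence of PAD4 in both directions. The interaction was called higher for 1287 genes, 8.53% of those tested, and lower for 940, or 6.23%, beside a median value over all genes of 0.126. Among the calls 1286 of the higher and 939 of the lower were differences of 2-fold or more. The aig2abc mutations alone raised 2709 genes (18%) and lowered 2947 (19.5%), whereas in the pad4 background they raised 503 (3.34%) and lowered 100 (0.663%). This gap was not kept with the replicate-axis covariate. There aig2abc alone raised 577 genes and lowered 800, and in the pad4 background it raised 960 and lowered 757. Mutation of PAD4 alone changed 104 genes (0.69%), of which 1 was higher (0.00663%) and 103 lower (0.683%). Of the genes raised, 325 (2.15% of those tested) were called in both backgrounds, which is 12% of the 2709 and 64.6% of the 503, and 279 of these 325 had no interaction call. In the other direction 67 genes (0.444% of those tested) fell in both, 2.27% of the 2947 and 67% of the 100. These comparisons share no library. Calls were spread over the 5 chromosomes, at 8.17 to 9.15% of the genes of a chromosome for higher and 5.1 to 6.48% for lower calls.

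**Figure D1:**
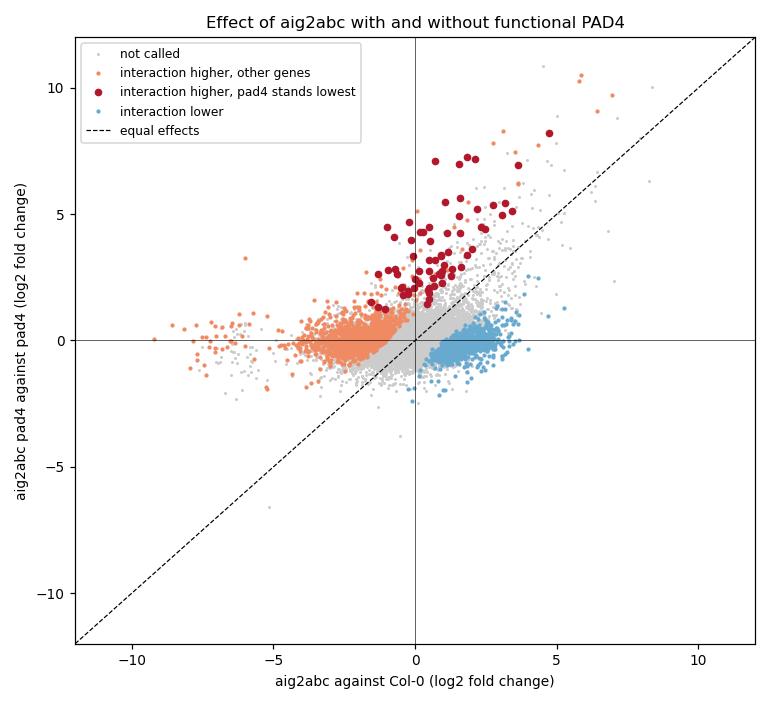
Each point is 1 of the 15082 genes tested, placed by its log2 fold change in aig2abc against Col-0 (x axis) and in aig2abc pad4 against pad4 (y axis), with genes called for the interaction in colour and equal effects on the dashed line. Most coloured points lie near 0 on the y axis and away from 0 on the x axis, and the 66 genes with pad4 lowest lie apart, high on the y axis.

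Most interaction calls came from 1 genotype standing apart. Each gene was described by the genotype whose log2 level lay farthest from the mean of the other 3, a description that uses the same levels as the test. Among higher calls aig2abc stood below the rest for 1113 genes (86.5%), aig2abc pad4 stood above for 78 (6.06%), pad4 below for 66 (5.13%) and Col-0 above for 30. Among lower calls aig2abc stood above the rest for 894 genes (95.1%) and aig2abc pad4 below for 26. Over all genes tested, aig2abc was the genotype below the rest for 40.7% and above the rest for 27.6%. In the first class aig2abc was at a median log2 ratio of -1.94 to Col-0, pad4 at -0.31 and aig2abc pad4 at -0.28, each ratio computed from mean CPM plus 0.5. For the 894 genes these medians were 1.66, 0.38 and 0.25.

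**Figure D2:**
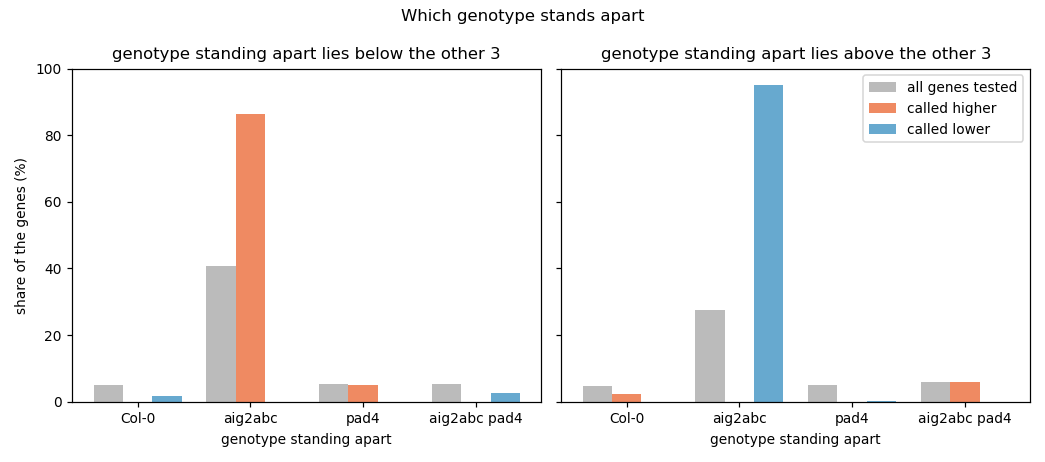
Bars give the share of genes (%) for which each genotype lies farthest from the other 3, below them in the left panel and above them in the right one, for all genes tested, genes called higher and genes called lower. The aig2abc genotype takes 86.5% of the higher calls in the left panel and 95.1% of the lower calls in the right one.

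The genes with pad4 lowest held the salicylic acid outputs. All 4 tested members of that list were called higher, beside 8.53% of all genes, with a list median of 3.04 against 0.126, and the fifth member, GRXC9, was not tested for low counts. PR1, the usual marker of salicylic acid responses, stood at 98.1, 142 and 224 CPM in Col-0, 358, 253 and 355 in aig2abc and 5.54, 5.52 and 3.51 in pad4, with 259, 263 and 136 in aig2abc pad4. The 3 pad4 libraries were below all others, and the aig2abc pad4 libraries overlapped those of Col-0 and of aig2abc. The effect of aig2abc on PR1 was 1.06 ± 0.33 with PAD4 and 5.49 ± 0.40 without it, and the interaction value was 4.43 ± 0.49 (edgeR adjusted p = 0.000408). PNP-A, which encodes a secreted natriuretic peptide, stood at 13.1, 11.1 and 18.9 CPM in Col-0, 14.8, 7.72 and 15.4 in aig2abc and 0.956, 1.26 and 0.351 in pad4, with 10.4, 9.8 and 6.08 in aig2abc pad4. For PNP-A aig2abc made no called difference in the presence of PAD4 (-0.07 ± 0.36), while in its absence the gene rose by 3.33 ± 0.41 to a level close to the lower Col-0 libraries, an interaction of 3.40 ± 0.55 (edgeR adjusted p = 0.00888). PR5, a thaumatin-like protein, was also lowest in all pad4 libraries, with an interaction of 2.69 ± 0.52 (edgeR adjusted p = 0.0127). With the replicate-axis covariate 3 of the 4 outputs were called, and PR5 was not (2.835, edgeR adjusted p = 0.0758).

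PR2, a secreted glucanase, was at 102.7, 160 and 355 CPM in Col-0, 390, 351 and 372 in aig2abc and 10.7, 12.9 and 9.71 in pad4, with 64.4, 75.2 and 67.1 in aig2abc pad4. Here the aig2abc pad4 libraries lay above pad4 but below every Col-0 library, and the interaction value was 1.78 ± 0.48 (edgeR adjusted p = 0.0274). That call was lost without any one aig2abc library, pad4 replicate 3 or aig2abc pad4 replicate 2, the adjusted p reaching 0.0738 when pad4 replicate 3 was dropped, and the value was 1.13 without Col-0 replicate 3. The count of outputs called was 3 in place of 4 without any of those 5 libraries.

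**Figure D3:**
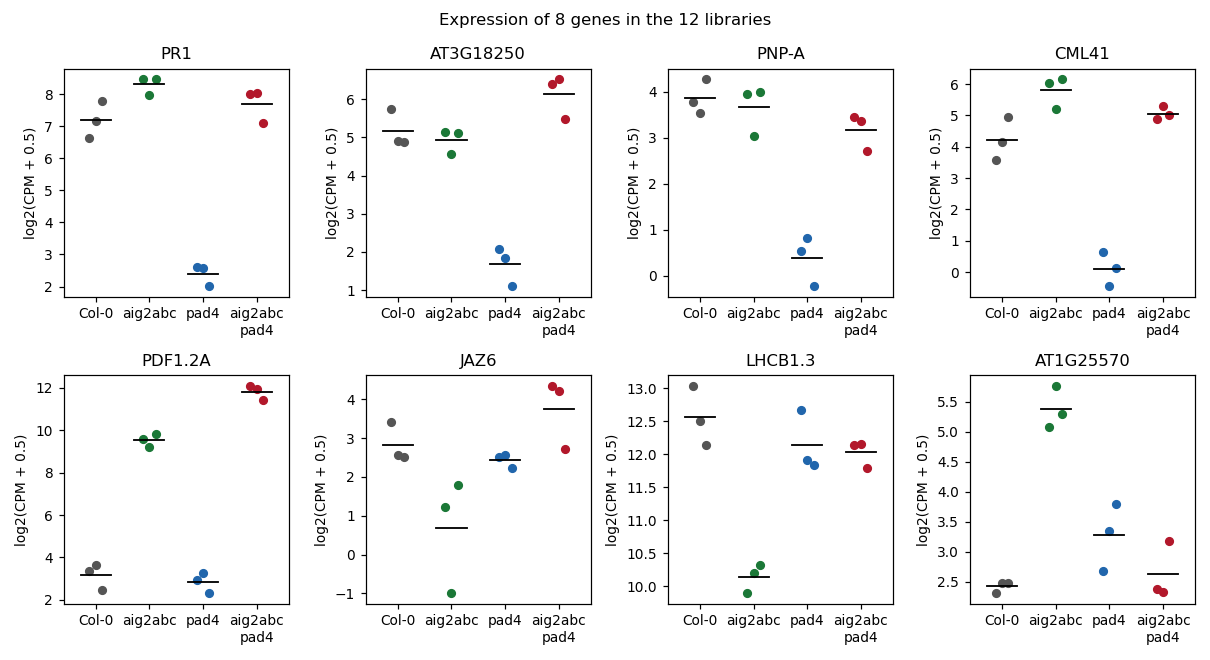
Points are log2(CPM + 0.5) of 8 genes in the 3 libraries of each genotype and bars are the means of those log2 values. In the first 4 panels pad4 stands below the rest, PDF1.2A is highest in aig2abc pad4, JAZ6 and LHCB1.3 are lowest in aig2abc, and AT1G25570 is highest in aig2abc.

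The gene with the smallest adjusted p of the whole interaction, AT3G18250, annotated as a putative membrane lipoprotein, belonged to the same class. It stood at 53, 29.3 and 28.8 CPM in Col-0, 34.8, 23.2 and 34.1 in aig2abc and 3.73, 3.1 and 1.64 in pad4, with 84.6, 92.2 and 44.1 in aig2abc pad4. The pad4 libraries were again below all others, aig2abc and Col-0 overlapped, and the interaction value was 4.91 ± 0.51 (edgeR adjusted p = 0.000403). AT3G22600, of the lipid-transfer protein family, was called with an edgeR adjusted p of 0.00166, and the calmodulin-like gene CML41 gave 4.05 ± 0.59 with 11.5, 17.2 and 30.3 CPM in Col-0, 65.2, 36.7 and 71.2 in aig2abc and 1.05, 0.23 and 0.585 in pad4, with 29, 38.6 and 31.7 in aig2abc pad4. Further members were CAX3, a vacuolar cation exchanger (2.47 ± 0.42), the ubiquitin ligase gene RING1 (2.12 ± 0.43), PLA2A, a patatin-like phospholipase (2.62 ± 0.41), and AT5G10760, of the aspartyl protease family (2.42 ± 0.41). These 9 genes, counting PR1 and PNP-A, were chosen here as examples called in the fit and in each of the 22 other settings tried.

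Over the 66 genes of this class the median log2 ratio to Col-0 was -1.85 in pad4, 0.57 in aig2abc and 0.62 in aig2abc pad4. In 38 of the 66 the mean of aig2abc pad4 was within 2-fold of Col-0, and in 65 every aig2abc pad4 library was above every pad4 library. In pad4 against Col-0 46 of them were called lower, beside 0.683% of all genes, and in aig2abc pad4 against pad4 64 were called higher, beside 3.34%; both counts describe how the class was formed. In aig2abc against Col-0 22 were called higher, beside 18%, and 3 lower, beside 19.5%.

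The regulatory sequence before these genes is shown for AT3G18250, PNP-A and CML41, examples of genes far lower in pad4 than in aig2abc pad4, to show what lies before genes of this pattern. Each line gives the 250 bases before the RefSeq gene start, 5′ to 3′ in the direction of the gene, from the TAIR10.1 assembly. Capitals mark the letters TTGAC, the core of the W-box that WRKY transcription factors bind, or GTCAA where it lies on the other strand. The windows are chr3:6258427-6258676 on the minus strand for AT3G18250, chr2:8091737-8091986 on the minus strand for PNP-A and chr3:18873661-18873910 on the plus strand for CML41.
AT3G18250: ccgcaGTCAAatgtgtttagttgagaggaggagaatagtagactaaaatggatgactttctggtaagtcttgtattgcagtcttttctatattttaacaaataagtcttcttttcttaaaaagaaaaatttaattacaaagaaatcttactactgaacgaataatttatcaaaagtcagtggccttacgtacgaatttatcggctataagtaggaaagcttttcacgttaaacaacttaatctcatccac
PNP-A: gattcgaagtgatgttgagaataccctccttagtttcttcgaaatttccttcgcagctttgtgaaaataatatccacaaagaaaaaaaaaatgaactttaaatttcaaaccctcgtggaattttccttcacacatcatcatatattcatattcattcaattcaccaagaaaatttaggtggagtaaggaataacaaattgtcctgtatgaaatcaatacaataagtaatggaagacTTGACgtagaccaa
CML41: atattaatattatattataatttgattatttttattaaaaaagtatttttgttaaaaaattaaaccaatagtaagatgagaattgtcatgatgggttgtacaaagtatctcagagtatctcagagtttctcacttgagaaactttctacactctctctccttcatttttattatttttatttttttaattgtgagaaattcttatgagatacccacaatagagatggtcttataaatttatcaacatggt

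AT3G18250 and PNP-A each held 1 such core and CML41 held 0. In windows of 250 bases before and 50 after the gene start, searched on both strands, TTGAC was present in 48 of the 66 genes (72.7%) and in 50.7% of the 14989 tested genes with a window. The shares were 47.8% for the 1106 genes with a window that had aig2abc lowest and 60.3% for the 78 with aig2abc pad4 highest. TGACG, the core bound by TGA factors, which may overlap TTGAC by 4 bases, was present in 36.4% of the 66 and in 23.9% of all. These are matches of letters and not evidence of binding.

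The sign of an interaction can depend on the scale. On the CPM scale, where absolute differences are compared, 8 of the 1287 higher calls (0.622%) and 0 of the 940 lower calls had the opposite sign, and all 8 were among the 66 genes with pad4 lowest. In AT3G13950, annotated as ankyrin, the interaction was 1.92 on the log2 scale and -55.6 ± 6.97 CPM, with mean levels of 10.8 CPM in Col-0, 89.2 in aig2abc, 0.739 in pad4 and 23.6 in aig2abc pad4. AT2G18690, annotated as an uncharacterized protein, gave -8.06 ± 2.44 CPM, and in these 2 genes the opposite value exceeded 2 standard errors. The other 6 were within 2 standard errors, among them PR2 at -107 ± 77.4, SAG13 at -8.59 ± 26.6 and CML41 at -5.55 ± 12.4 CPM. For PR1 the difference was 47.2 ± 65.4 CPM, positive but smaller than its standard error, and for AT3G18250 it was 77.1 ± 17.4 CPM. In all, 1033 of the higher and 928 of the lower calls kept their sign on the CPM scale with a difference over 2 standard errors.

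Of 13 camalexin and indole carbonylnitrile genes tested, the aig2abc mutations raised 8 in both backgrounds, and the rise of some was larger without PAD4. Of the 13 tested members of the camalexin and indole carbonylnitrile list, 5 were called higher and 1 lower for the interaction, beside 8.53% and 6.23% of all genes, with a median of 1.70, and 7 had pad4 as the genotype standing apart. Among all 13, aig2abc raised 8 with PAD4, beside 18% of all genes, and 9 without it, beside 3.34%. With the replicate-axis covariate 1 of the 13 was called higher for the interaction, and with limma-voom 3. GSTF6, a glutathione transferase linked to camalexin synthesis, stood at 18, 7.42 and 9.68 CPM in Col-0, 30.4, 25.1 and 47.3 in aig2abc and 3.82, 6.55 and 3.16 in pad4, with 97.8, 111 and 48.5 in aig2abc pad4. Every aig2abc pad4 library was above every other library, pad4 was lowest, and the interaction value was 2.66 ± 0.55 (edgeR adjusted p = 0.014). GSTF6 was not called with the replicate-axis covariate (1.223, edgeR adjusted p = 0.265). PAD3, the last enzyme of camalexin synthesis, was at 0.337 to 0.799 CPM in Col-0, 7.72 to 8.86 in aig2abc and 0, 0 and 0.234 in pad4, with 7.56 to 15.2 in aig2abc pad4. Its interaction value of 3.34 ± 0.92 (edgeR adjusted p = 0.0282) rests on a pad4 level near 0 and depends on the prior count of the fit. For CYP71A13, an earlier enzyme of that route, the value of 1.48 ± 0.54 did not pass (edgeR adjusted p = 0.0696), and on the CPM scale its sign was opposite, at -21.1 ± 7.60. CYP71A13 and its near copy CYP71A12 may share reads. The PAD3 call was lost without Col-0 replicate 1, any aig2abc library, pad4 replicate 2 or aig2abc pad4 replicate 1 or 2, and its value was 5.62 without pad4 replicate 3. The list count fell to 1 without aig2abc replicate 2 or 3, pad4 replicate 2 or aig2abc pad4 replicate 2, to 2 without aig2abc replicate 1 or aig2abc pad4 replicate 1 and to 3 without pad4 replicate 3. The 1 lower call, AAO1, was kept only when Col-0 replicate 3, pad4 replicate 1 or aig2abc pad4 replicate 3 was left out.

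Among senescence genes 6 of 11 were called higher, beside 8.53% of all genes, and 0 lower, with a median of 1.16. The count was 3 with limma-voom and 2 with the replicate-axis covariate. SAG21, a late embryogenesis abundant protein of mitochondria, stood at 119, 106 and 107 CPM in Col-0, 227, 199 and 248 in aig2abc and 41.3, 38.6 and 24 in pad4, with 285, 308 and 233 in aig2abc pad4. The pad4 libraries were lowest and both aig2abc genotypes were above Col-0 without overlap, and the interaction value was 1.96 ± 0.35 (edgeR adjusted p = 0.011). BCB, a blue copper-binding protein, gave 2.26 ± 0.41 (edgeR adjusted p = 0.011), with every aig2abc pad4 library above every Col-0 library. SAG12, SAG13 and SEN1 were also called with pad4 lowest, and the chlorophyll breakdown gene PAO with aig2abc lowest. Counts of called members ranged from 2, without aig2abc replicate 2 or pad4 replicate 3, to 6 without pad4 replicate 1, and were 3 without Col-0 replicate 1, aig2abc replicate 1 or aig2abc pad4 replicate 2. They were 4 without Col-0 replicate 2 or 3, aig2abc replicate 3, pad4 replicate 2 or aig2abc pad4 replicate 1.

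Some defensin genes were higher in aig2abc pad4 than in any other genotype. In the list of defensins and their ERF activators 4 of 12 tested members were called higher, beside 8.53% of all genes, and 0 lower, with a median of 1.31. With the replicate-axis covariate PDF1.2A alone was called, at 1.90, while PDF1.3, PDF1.2C and PR4 had values of 2.17, 1.41 and 1.49 (edgeR adjusted p = 0.0825, 0.195 and 0.122). In aig2abc pad4 against aig2abc 6 of the 12 were called higher and 2 lower, beside 12.8% and 11.5%. PDF1.2A, a defensin that serves as marker of the jasmonate and ethylene branch, stood at 9.88, 12 and 5.09 CPM in Col-0, 759.6, 590.5 and 906.7 in aig2abc and 7.07, 8.96 and 4.45 in pad4, with 4375, 3899 and 2731 in aig2abc pad4. Every aig2abc pad4 library exceeded every aig2abc library, and Col-0 and pad4 overlapped. The interaction value was 2.66 ± 0.48 (edgeR adjusted p = 0.011), and on the CPM scale the difference was 2918 ± 497. PDF1.2C and PDF1.3 gave 2.78 ± 0.54 and 4.64 ± 0.78, but these near-identical genes may share reads and count as one signal. PR4, a chitin-binding protein, was at 12.7 to 49.4 CPM in Col-0, 57.9 to 73.5 in aig2abc and 6.08 to 15.9 in pad4, with 198 to 334 in aig2abc pad4, with an interaction of 3.12 ± 0.61 (edgeR adjusted p = 0.0134). None of the ERF genes tested was called: ORA59, the activator of PDF1.2, had 0.55 ± 0.40 (edgeR adjusted p = 0.348).

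Other genes with aig2abc pad4 highest included AT2G43590, of the chitinase family. It was at 17.9, 13 and 9.98 CPM in Col-0, 333, 181 and 299 in aig2abc and 3.63, 6.2 and 4.68 in pad4, with 1189, 1148 and 725.6 in aig2abc pad4. The genotypes did not overlap, and the interaction was 3.39 ± 0.45 (edgeR adjusted p = 0.00246). AT3G15356, of the legume lectin family, stood at 141, 36.4 and 34.9 CPM in Col-0, 84.5, 46.3 and 85.4 in aig2abc and 67.7, 27.5 and 23.1 in pad4, with 2017, 1745 and 377 in aig2abc pad4. Only the last genotype was apart from the rest, though its replicate 3 was far below the other replicates, and the value was 5.07 ± 0.87 (edgeR adjusted p = 0.00909). The glutathione transferase gene GSTF10 followed at 1.70 ± 0.36, with 1451 to 1952 CPM in aig2abc pad4 and 397 to 867 CPM elsewhere. With the replicate-axis covariate GSTF10 was not called (1.179, edgeR adjusted p = 0.121). Of the 78 genes of this class 60 were called higher in aig2abc pad4 against aig2abc, beside 12.8% of all genes, which describes how the class was formed. The GCC-box letters GCCGCC, bound by ERF factors, were found in 7 of their 78 windows (8.97%), in 0 of the 66 with pad4 lowest and in 2.68% of all.

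Some genes of photosynthesis and growth fell in aig2abc and fell less when PAD4 was also mutated. Of the 25 photosystem and antenna genes 7 were called higher for the interaction and 1 lower, beside 8.53% and 6.23% of all genes, with a median of 0.45. The aig2abc mutations lowered 14 of them with PAD4, beside 19.5% of all genes, and 0 without it, where the share of all genes was 0.663%. The median effect of aig2abc on the list was -0.93 with PAD4 and still below 0 without it, at -0.59. LHCB1.3, an antenna protein of photosystem II, stood at 8409, 5798 and 4535 CPM in Col-0, 948.7, 1175 and 1281 in aig2abc, 6553, 3849 and 3663 in pad4, and the aig2abc pad4 libraries held 4512, 4558 and 3561. Below all others lay aig2abc, while the others overlapped among themselves, and the interaction was 2.31 ± 0.41 (edgeR adjusted p = 0.011). LHCB1.3 has near copies that may share its reads, and LHCB1.1 and LHCB1.2 gave 0.06 ± 0.41 and 0.09 ± 0.37, neither called. PSAO, a subunit of photosystem I, was at 16327 to 24305 CPM in Col-0, 3908 to 4536 in aig2abc and 13478 to 22448 in pad4, with 12313 to 14636 in aig2abc pad4, with a value of 1.72 ± 0.36 (edgeR adjusted p = 0.014). Outside the list, PSAN of photosystem I (1.95 ± 0.34) and the isoprenoid enzyme gene HDR (2.30 ± 0.40) had the same form. PSAH2, by contrast, was called lower at -1.72 ± 0.47 (edgeR adjusted p = 0.0281). That call was lost without Col-0 replicate 1, aig2abc replicate 1 or 2, pad4 replicate 2 or 3, or aig2abc pad4 replicate 1 or 2. The members called higher numbered 6 to 9 when single libraries were left out and 2 with the replicate-axis covariate.

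In the Rubisco and Calvin cycle list 5 of 16 were called higher, beside 8.53% of all genes, and 0 lower, with a median of 0.86, and with the replicate-axis covariate 0 were called. The aig2abc mutations lowered 10 with PAD4, beside 19.5%, and 0 without it, beside 0.663%. Their median effect on this list was -1.44 with PAD4 and -0.57 without it. RBCS2B, a small subunit of Rubisco, was at 531 to 923 CPM in Col-0, 142 to 186 in aig2abc and 484 to 894 in pad4, with 340 to 636 in aig2abc pad4, with a value of 1.68 ± 0.44 (edgeR adjusted p = 0.0239). The aig2abc libraries lay below all others, and small-subunit genes may share reads. This call was lost without aig2abc replicate 1 or 2, pad4 replicate 3, or aig2abc pad4 replicate 1 or 2, with an adjusted p of up to 0.0648. The count of called Calvin cycle genes was 0 without aig2abc replicate 2, pad4 replicate 3 or aig2abc pad4 replicate 1 or 2, 1 without aig2abc replicate 1 or 3, 3 without Col-0 replicate 1 or 2 or pad4 replicate 2, and 9 without aig2abc pad4 replicate 3.

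Of 19 wall loosening and auxin growth genes aig2abc lowered 12 with PAD4, beside 19.5% of all genes, and 4 without it, beside 0.663%. Those 4 were called lower in both backgrounds. The median effect was -1.54 with PAD4 and -0.99 without it, and 1 gene was called higher in each background. For the interaction 7 of the 19 were called higher and 1 lower, beside 8.53% and 6.23% of all genes, with a median of 1.22. The higher count was 2 with limma-voom and 0 with the replicate-axis covariate. EXPA8, an expansin that loosens cell walls, stood at 132, 91.9 and 87.5 CPM in Col-0, 7.04, 11.6 and 14.4 in aig2abc and 117, 62.9 and 34.6 in pad4, with 64.7, 64.8 and 31.4 in aig2abc pad4. Again aig2abc alone was apart, and the interaction was 2.83 ± 0.59 (edgeR adjusted p = 0.014). Another wall gene outside the list, EXLA1 of the expansin-like family, gave 3.09 ± 0.50 (edgeR adjusted p = 0.00888). The list count was 1 without aig2abc replicate 1 or 3, 2 without aig2abc replicate 2, pad4 replicate 3 or aig2abc pad4 replicate 2, 3 without pad4 replicate 2 or aig2abc pad4 replicate 1, and 4 without Col-0 replicate 1. In the abscisic acid and cold list aig2abc lowered 6 of 11 with PAD4 and 2 without it, beside 19.5% and 0.663% of all genes. Those 2 were called lower in both backgrounds, and 1 gene was called higher with PAD4. For the interaction 3 of the 11 were called higher, beside 8.53% of all genes, and 0 with the replicate-axis covariate. Among the 3 were the chloroplast-protecting COR15A (2.23 ± 0.49) and COR15B (1.70 ± 0.37).

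Genes called lower mostly rose in aig2abc with PAD4, and few were called higher without it. Of the 894 with aig2abc highest, 869 were called higher in aig2abc against Col-0, beside 18% of all genes. In aig2abc pad4 against pad4 9 were called higher, beside 3.34%, and both counts describe how the class was formed. AT1G25570, annotated with a leucine-rich repeat and a sugar-binding domain, had the smallest adjusted p among all lower calls, with 4.44, 5.06 and 5.09 CPM in Col-0, 33.4, 54 and 38.7 in aig2abc and 5.92, 9.65 and 13.5 in pad4, with 4.71, 4.52 and 8.55 in aig2abc pad4. Every aig2abc library was above all others, and the interaction was -3.77 ± 0.48 (edgeR adjusted p = 0.00172). SOT17, a sulfotransferase of glucosinolate synthesis, stood at 30.2, 50.3 and 48.8 CPM in Col-0, 250, 239 and 207 in aig2abc and 31.2, 53.4 and 74.2 in pad4, with 31.5, 39.6 and 88.5 in aig2abc pad4. Its effect in aig2abc was 2.43 ± 0.39 with PAD4 and 0.00 ± 0.37 without it, an interaction of -2.43 ± 0.53 (edgeR adjusted p = 0.0152). CYP83A1, a cytochrome P450 of aliphatic glucosinolate synthesis, gave -1.96 ± 0.42 (edgeR adjusted p = 0.0149). In the aliphatic glucosinolate list most called effects of aig2abc went the other way. With PAD4 aig2abc lowered 9 of the 21, beside 19.5% of all genes, and raised 2, beside 18%. The median effect was -0.64 with PAD4 and -0.57 without it, where 0 were called. For the interaction 3 of the 21 were called lower, beside 6.23% of all genes, and 1 higher, with a median of 0.08. With the replicate-axis covariate 0 were called in either direction. SOT17 and CYP83A1 then had values of -0.97 and -1.17 (edgeR adjusted p = 0.229 and 0.182). Without pad4 replicate 1 or aig2abc pad4 replicate 3 the lower count was 6, and 2 without Col-0 replicate 1, pad4 replicate 2 or 3, aig2abc pad4 replicate 1 or 2 or any aig2abc library. ALA2, a lipid flippase, was at 0.843 to 1.33 CPM in Col-0, 9.19 to 11.6 in aig2abc and 1.62 to 2.81 in pad4, with 1.05 to 1.81 in aig2abc pad4, a value of -3.69 ± 0.56 (edgeR adjusted p = 0.00747). ATG3, of the autophagy machinery, gave -2.09 ± 0.35 (edgeR adjusted p = 0.00909).

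ICS1, the enzyme that makes the salicylic acid precursor, had an interaction value of opposite sign to those of the outputs. It stood at 9.33, 13.7 and 20.7 CPM in Col-0, 83.8, 59.8 and 89 in aig2abc and 6.31, 9.42 and 11.1 in pad4, with 11.3, 14.2 and 25 in aig2abc pad4. All aig2abc values exceeded all others, while aig2abc pad4 overlapped Col-0. The interaction was -1.53 ± 0.49 (edgeR adjusted p = 0.0449), and this call held only when Col-0 replicate 3, pad4 replicate 1 or aig2abc pad4 replicate 3 was left out. Without each of the other 9 libraries in turn the adjusted p was 0.0653 to 0.142, with values of -1.65 to -1.23. With the replicate-axis covariate the value was -0.43 (edgeR adjusted p = 0.725). The call was also lost when all libraries were thinned to the smallest total. As reported, ICS1 was the 1 called gene among the 8 tested for salicylic acid synthesis, beside 6.23% of all genes called lower. The list median was -0.20.

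BIR1, a receptor-like kinase that restrains immunity, was at 32.3, 64.8 and 115 CPM in Col-0, 1681, 2364 and 1451 in aig2abc and 35.4, 66.1 and 138 in pad4, with 61.1, 76.6 and 337 in aig2abc pad4. The genotype aig2abc stood far above the rest, with a value of -3.70 ± 0.85 (edgeR adjusted p = 0.0171), and the call was lost without aig2abc replicate 2 (0.0507), pad4 replicate 3 (0.0521) or aig2abc pad4 replicate 2 (0.0536). Chaperones of the endoplasmic reticulum, which fold secreted proteins, had 3 of 12 members called lower and 1 higher, with a median of -0.31. Clock genes had 3 of 14 lower and 0 higher, with a median of -0.41, and the shares over all genes were 6.23% lower and 8.53% higher. In both lists the lower count was 0 with the replicate-axis covariate, and also without any one aig2abc library, pad4 replicate 3 or aig2abc pad4 replicate 1 or 2. It was also 0 without Col-0 replicate 2 for the chaperones and without Col-0 replicate 1 for the clock, and 1 without pad4 replicate 2 in both and without Col-0 replicate 1 for the chaperones.

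The lists of regulators upstream of the salicylic acid outputs were short and gave few calls. Shares over all genes were 8.53% higher and 6.23% lower, so few calls in lists this short do not set them apart. Among the 10 tested genes of the EDS1-PAD4 node and its helper receptors 0 were called in either direction, with a median of 0.08. EDS1 stood at 3.11 to 9.38 CPM in Col-0, 1.93 to 12.6 in aig2abc and 3.22 to 4.68 in pad4, with 6.58 to 8.37 in aig2abc pad4, with a value of 0.03 ± 0.58 (edgeR adjusted p = 0.98). Without pad4 replicate 1 or aig2abc pad4 replicate 3, 2 of the 10 were called higher, and 1 was called lower without Col-0 replicate 3. Of the 16 genes tested for salicylic acid perception only NIMIN2, an NPR1 partner, was called, at 2.22 ± 0.53 (edgeR adjusted p = 0.0186), and not without pad4 replicate 3 or aig2abc pad4 replicate 1 (0.0513 and 0.0521). With the replicate-axis covariate NIMIN2 was not called either (1.185, edgeR adjusted p = 0.395). MYB51, an activator of indole glucosinolate genes, had -0.75 ± 0.50 (edgeR adjusted p = 0.3). FMO1 and ALD1, which act in the pipecolic acid pathway, were not tested for low counts.

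**Figure D4:**
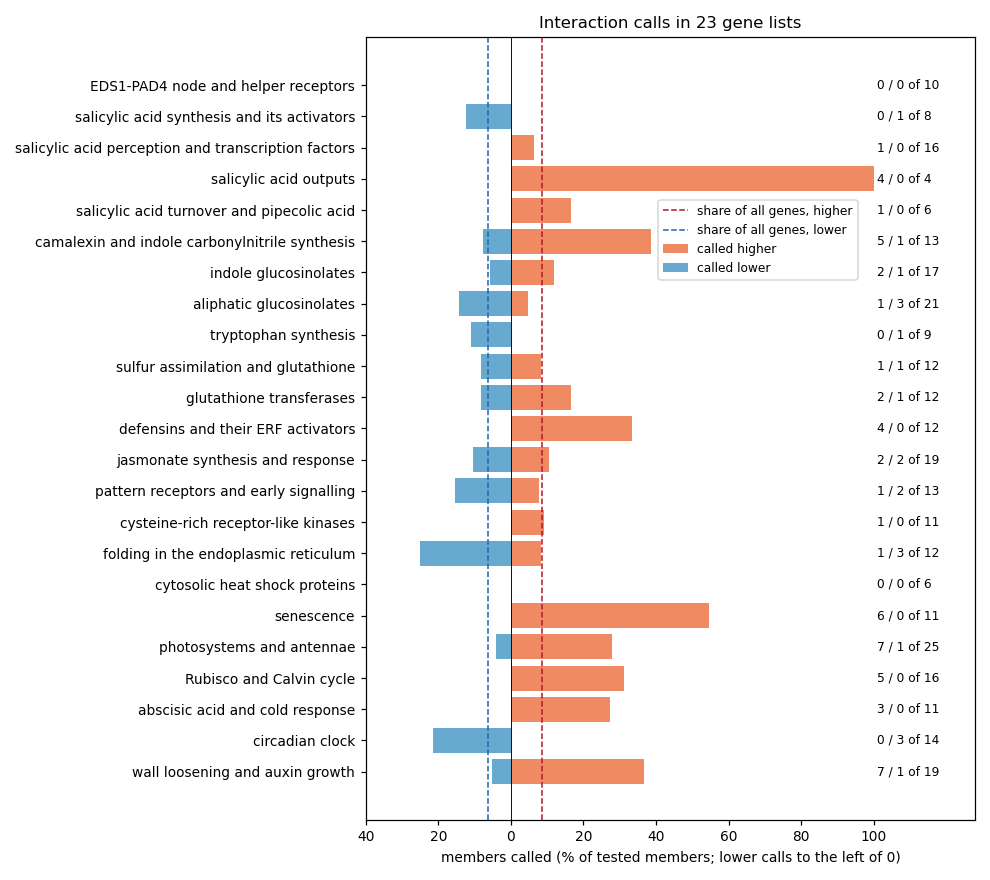
Bars give the share of tested members (%) called higher (right) or lower (left) for the interaction in 23 gene lists, with the counts beside them and the shares over all genes, 8.53% and 6.23%, as dashed lines. Salicylic acid outputs (4 of 4) and senescence (6 of 11) have the longest bars to the right.

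In 7 genes the effects of aig2abc were called in opposite directions, lower with PAD4 and higher without it, which is 0.0464% of the genes tested, and 0 genes showed the reverse. JAZ6, a repressor of jasmonate signalling, stood at 10.1, 5.4 and 5.19 CPM in Col-0, 1.85, 0 and 2.95 in aig2abc and 5.26, 5.4 and 4.21 in pad4, with 19.9, 18.23 and 6.08 in aig2abc pad4. It fell by 1.67 in aig2abc and rose by 1.58 ± 0.41 in aig2abc pad4 against pad4, and the interaction was 3.25 ± 0.70 (edgeR adjusted p = 0.0148). CYSD2, a cysteine synthase, stood at 46.5, 45.5 and 41.7 CPM in Col-0, 15.2, 19.3 and 18.4 in aig2abc and 23.3, 24.1 and 12.1 in pad4, with 50.6, 50.9 and 29.9 in aig2abc pad4. Col-0 and aig2abc pad4 overlapped, as did the 2 single genotypes, with an interaction of 2.51 ± 0.42 (edgeR adjusted p = 0.00909). AT5G55450, of the lipid-transfer protein family, was at 81.3 to 117 CPM in Col-0, 25.1 to 32.8 in aig2abc and 10.5 to 31.2 in pad4, with 34.7 to 69.7 in aig2abc pad4, a value of 3.11 ± 0.50 (edgeR adjusted p = 0.00888).

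A large value can also come from the wild type alone. AT3G01345, annotated as an uncharacterized protein, had a value of 7.95 ± 1.09 (edgeR adjusted p = 0.00277), with 112, 109 and 82.9 CPM in Col-0 and at most 3.86 CPM in each of the 9 mutant libraries. Its mutant libraries overlapped, and the value rests on levels near 0. AT3G42658.1 was also highest in Col-0, with 46 to 92.8 CPM against 0 to 9.08 elsewhere, and gave 3.31 ± 0.60 (edgeR adjusted p = 0.0111).

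The number of calls depended strongly on single libraries and on the replicate axis. Leaving out pad4 replicate 3 left 323 higher calls and leaving out aig2abc pad4 replicate 3 gave 2443, while lower calls ranged from 89 without aig2abc pad4 replicate 2 to 2145 without aig2abc pad4 replicate 3. When each library's score on that axis was added to the fit, 72 genes passed as higher and 14 as lower, and 67 and 10 of these were also called without it. In every one of the 12 omissions 241 of the higher and 80 of the lower calls were kept. Through all 22 other settings 46 higher and 5 lower calls were kept, and of these 46 aig2abc was lowest in 26, pad4 lowest in 13, aig2abc pad4 highest in 4 and Col-0 highest in 3. The 13 with pad4 lowest include PR1, PNP-A, CML41 and SAG21, the 4 with aig2abc pad4 highest include PDF1.2A and AIG2A, and the 5 lower ones include AT1G25570 and ATG3.

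**Figure D5:**
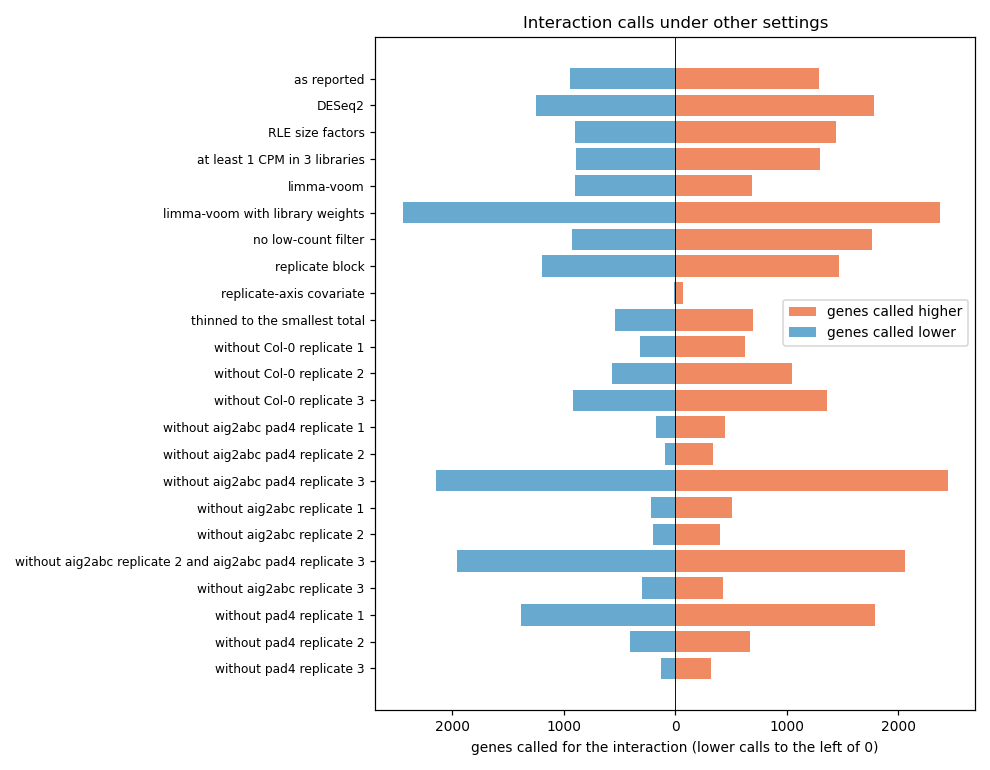
Bars give the number of genes called higher (right) or lower (left) for the interaction as reported and under each other setting. The replicate-axis covariate gives the shortest bars, 72 and 14, and leaving out aig2abc pad4 replicate 3 gives 2443 and 2145.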

How the data were processed

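The deposited table holds whole-number counts per gene, not normalized as its values show, and was used for 12 libraries of 3′ RNA-seq. Per the submitters' processing notes, STAR and edgeR were used with the build TAIR10. Settings, versions, annotation and strand handling are not stated there, so overlapping, antisense or near-identical genes are uncertain. Depth ranged from 584342 to 10697612 counts per library.

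Libraries took their genotype from the labels. The third pad4 column has a number that no pad4 title carries and is called pad4 replicate 3. Names and promoter windows came from RefSeq on TAIR10.1, which matched 28932 of the gene identifiers and left 4399 under their codes. Of 33331 genes, 11272 had 0 counts throughout.

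Counts were fitted in edgeR 4.0.16 (R 4.3.3) as 4 group means over all 12 libraries, after filterByExpr and TMM scaling, with the quasi-likelihood F-test in its robust form, Benjamini-Hochberg adjustment within each comparison and a threshold of 0.05 with no fold minimum. Across libraries of a genotype the biological coefficient of variation common to all genes came to 28.7%. Errors of log2 values are standard errors derived from the F-test, as the absolute log2 value divided by the square root of F. They thus restate the test and are no separate estimate. Errors of CPM differences are standard errors over 3 libraries a genotype. The script was tested on simulated counts with known changes.

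Members and the 23 gene lists, with 334 genes, were chosen with earlier results of these data known. The rule for named genes took the mutated genes, a defence panel, the 4 called members of each list with the smallest p, the 8 largest interaction values in each direction (mean log2 CPM 1 or more, a count in every library) and up to 6 genes with opposite effects. Other genes were picked with their values in view: those called under every setting, those named beside small counts and those with a promoter shown. The other settings were DESeq2 1.42.0, RLE size factors in edgeR, limma-voom 3.58.1 with or without library weights, other filters on low counts, the replicate number as a block, thinning to the smallest total, the replicate-axis score as a covariate and leaving out each library. Leaving out aig2abc replicate 2 together with aig2abc pad4 replicate 3 was chosen after seeing the data. No pair of replicates was close enough to be 1 library deposited again (chi-square of 3.61 to 64.1 per gene), so each was counted. The sequence of 1 promoter window is not reported here.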

Additional observations from a re-analysis of the deposited data

Results flagged for a closer look

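For 7 genes the effect of aig2abc differed in direction between the backgrounds, called lower with functional PAD4 and higher without it, and the test of the difference itself, the edgeR interaction, passed for each. The log2 interaction values were 3.25 for JAZ6, 2.31 for AT2G46620, of a nucleoside triphosphatase family, 3.94 for AT3G26470, which has an RPW8 domain, and 3.93 for AT5G10695. They were 2.27 for AT5G18310, 2.51 for CYSD2 and 3.11 for AT5G55450. AT3G26470 stood at 5, 6.41 and 7.49 CPM in Col-0, 2.6, 1.93 and 2.63 in aig2abc, 0.764, 0.689 and 0.468 in pad4, while aig2abc pad4 had 5.48, 4.97 and 1.64. Replicate 3 of aig2abc pad4 lay below every aig2abc library, and every pad4 library was below all others. JAZ6 and AT5G10695 had 0 counts in aig2abc replicate 2, the shallowest library. With the replicate-axis covariate the interaction of AT5G55450 and CYSD2 kept its call, at 1.94 and 1.80, whereas JAZ6 (1.52, edgeR adjusted p = 0.303), AT3G26470 (3.25, 0.0528), AT2G46620 (1.25, 0.196) and AT5G10695 (2.38, 0.168) did not pass. AT5G18310 was not called with the covariate either.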

How the results depend on the processing

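With the replicate-axis covariate the interaction gave 72 higher and 14 lower calls, aig2abc against Col-0 577 and 800, and aig2abc pad4 against pad4 960 and 757. Thinned to the smallest total, these were 700 and 541, 1426 and 1414, and 171 and 27. Limma-voom gave 684 higher interaction calls, and with library weights 2368 higher and 2443 lower, with 884 and 768 in aig2abc pad4 against pad4. DESeq2 called 226 lower in that last comparison. Without aig2abc replicate 2 and aig2abc pad4 replicate 3 together, chosen after seeing the data, the interaction gave 2058 and 1956, and aig2abc pad4 against pad4 257 lower. Leaving out single libraries gave 323 to 2443 higher and 89 to 2145 lower for the interaction, 1657 to 2953 and 1980 to 3257 for aig2abc against Col-0, and 351 to 618 and 22 to 317 for aig2abc pad4 against pad4. The cause was not tested. Of all interaction calls 57.8% were higher as reported, 61.5% with RLE size factors, 43.2% with limma-voom, 65.6% without a filter, where the median over all genes was 0.329, and 83.7% with the covariate. MPK3 changed sign with the covariate, to -0.0092.

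Pairing by replicate number was not shown for all samples: over 15 pairs of libraries with the same number the correlation of deviations was -0.273 to 0.55 (median 0.0175), and 5 were over 0.1, among them 0.515, 0.542 and 0.55 between the libraries numbered 1 of Col-0, pad4 and aig2abc pad4. Over 30 pairs with different numbers the correlation was -0.639 to 0.464 (median -0.0145), and 6 were over 0.1. With the replicate number as a block the interaction gave 1466 higher and 1198 lower calls, and PR2 was not called (1.41, edgeR adjusted p = 0.0504). The 584342 counts of aig2abc replicate 2 limit what can be seen in genes of low level.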
